A study of Mus musculus with 4 samples.

Results

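The genes described here are 9 interferon response genes, Stat2, Irf1, Irf7, Irf9, Isg15, Ifit1, Ifit3, Rnf213 and Oas1c, out of 32948 genes in a table of estimated read counts. They were selected by symbol as parts of 1 pathway, with their levels in all 4 libraries and their ratios between sorted fractions already known. Those ratios are therefore given as a description, and no test on them is used as support. The cells came from the thoracic aorta of mice (ascending part and arch) carrying Wnt1-Cre and the Rosa26-mTmG reporter. All cells of the reporter strain carry red tdTomato until Cre removes it, and from then on they and their progeny carry green GFP. Wnt1-Cre is active in the neural crest, an embryonic population that contributes smooth muscle to the arch, so that GFP marks cells with a Wnt1-Cre history and tdTomato the remaining cells. Cells of 1 female sample, and of 2 male samples that had been pooled, were sorted by colour. The 4 libraries were thus GFP and tdTomato of the female sample and GFP and tdTomato of the male pool, with 1 library for each sex and colour, and the female pair and the male pair below are the 2 colours from 1 suspension. The labels call the cells vascular smooth muscle, but the sort used fluorescence alone. They give no age, no treatment and no strain background, and all animals carried both alleles.

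Interferons are secreted proteins that warn cells of infection. Type I interferon binds the receptor Ifnar1/Ifnar2, whose kinases Jak1 and Tyk2 activate Stat2. With Irf9 it forms part of the complex ISGF3, which binds the interferon-stimulated response element (ISRE) in front of antiviral genes. Interferon gamma acts through Jak1 and Jak2 on another element, GAS, found at genes such as Irf1. In the vessel wall the pathway is known from smooth muscle, endothelium and immune cells alike.

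The promoters of the 9 genes were searched first, because the response is defined by these elements. Sequences were RefSeq promoters of build GRCm38.p6, read over the 250 bases before each start site, and all 9 genes had at least 1. The ISRE was searched as GAAANNGAAA and, for the other strand, TTTCNNTTTC. GAS was searched as TTCNNNGAA, which reads alike on both strands, and matches of 1 element could overlap. An ISRE match stood before 5 of the 9 genes, Stat2, Isg15, Ifit1, Ifit3 and Oas1c, beside 3.46% of all 27025 genes with a promoter (2.98% of 32851 promoters). A GAS match stood before Irf1 alone of the 9, beside 8.13% of all genes (7.02% of promoters). The 9 were selected as genes of this response, so a higher ISRE share than over all genes came with the choice and is no finding. The sites are shown 5′ to 3′ along each gene with the matches in capitals, since they are what the searches matched; a match is not a shown binding site.

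Isg15: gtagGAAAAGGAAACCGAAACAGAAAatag
Ifit1: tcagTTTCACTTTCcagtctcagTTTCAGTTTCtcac
Ifit3: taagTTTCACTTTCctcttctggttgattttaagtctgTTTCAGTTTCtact
Oas1c: ggacTTTCAGTTTCCATTTCccgg
Stat2: ctggTTTCAGTTTCcttt
Irf1: tgatTTCCCCGAAatga

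These stretches lie in GRCm38.p6 at chr4:156200871-156200900 (minus strand) for Isg15, chr19:34640781-34640817 (plus strand) for Ifit1, chr19:34583369-34583420 (plus strand) for Ifit3, chr5:120812609-120812632 (minus strand) for Oas1c, chr10:128270272-128270289 (plus strand) for Stat2 and chr11:53769920-53769936 (plus strand) for Irf1. Isg15 held 3 overlapping ISRE matches, Oas1c 2 overlapping ones, Ifit1 and Ifit3 2 separate ones each, and Stat2 1. No match of these letters was found in the windows of Irf7, Irf9 and Rnf213. The whole windows of Oas1c and Rnf213 are shown because these genes had the highest ratios of GFP to tdTomato among the 9, and only the first holds an ISRE match. The Rnf213 window lies before a RefSeq start upstream of the GENCODE M21 start of the gene. They cover chr5:120812515-120812764 (minus strand) and chr11:119389849-119390098 (plus strand) of the same build.

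Oas1c: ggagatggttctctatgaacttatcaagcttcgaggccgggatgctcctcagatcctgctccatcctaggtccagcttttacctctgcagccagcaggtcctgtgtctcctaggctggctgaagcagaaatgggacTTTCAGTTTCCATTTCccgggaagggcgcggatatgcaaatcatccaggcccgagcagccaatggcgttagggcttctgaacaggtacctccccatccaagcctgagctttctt
Rnf213: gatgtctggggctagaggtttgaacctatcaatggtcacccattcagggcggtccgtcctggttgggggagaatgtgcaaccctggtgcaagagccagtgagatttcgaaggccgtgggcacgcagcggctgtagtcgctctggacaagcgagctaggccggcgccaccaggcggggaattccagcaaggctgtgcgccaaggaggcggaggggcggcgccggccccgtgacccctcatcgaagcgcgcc

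**Figure D1:**
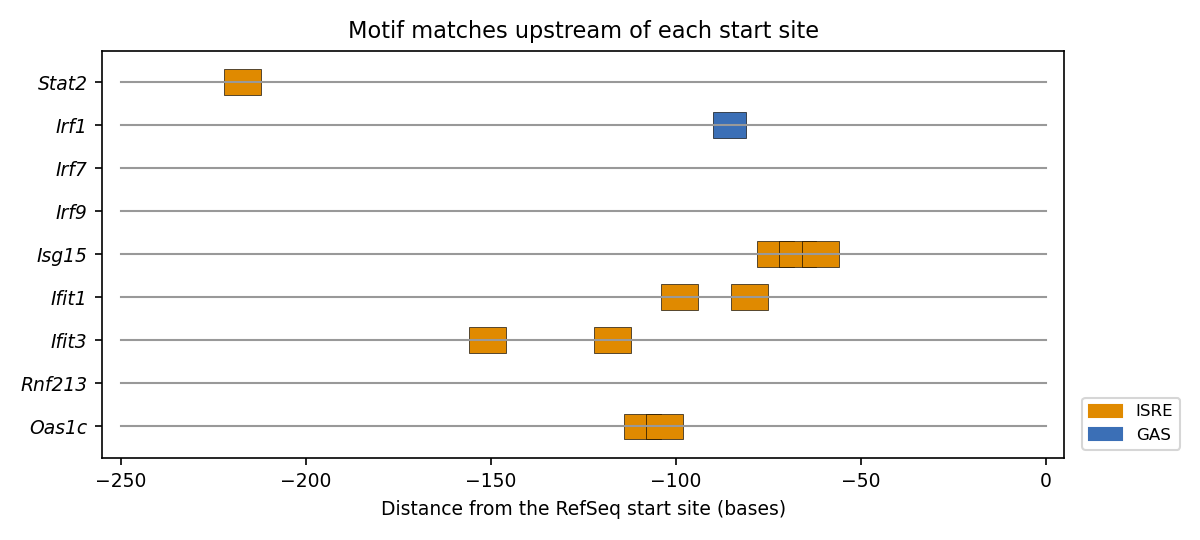
Position of motif matches in the 250 bases before the RefSeq start site of each gene (x axis, bases from the start site), with ISRE matches in orange and GAS in blue. Isg15, Ifit1, Ifit3 and Oas1c hold 2 or 3 ISRE matches between positions -156 and -57, Stat2 holds 1 that begins at -222, and Irf7, Irf9 and Rnf213 hold none.

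The libraries held 13678806 and 13911281 estimated counts (female GFP, then tdTomato) and 10094326 and 12837282 (male GFP, then tdTomato). At 10 counts or more, 11942, 16136, 9439 and 15593 genes were seen in that order. Of the 15055 genes with enough counts for the test, 3522 had 0 counts in male GFP and 1935 in female GFP. The median gene had a log2 ratio of GFP over tdTomato of -0.27 (female pair) and -0.998 (male pair), so that ratios near these values are ordinary in this table. Smooth muscle markers were present in all 4 libraries, 7 of 7 above 3 counts in each, with summed levels of 9109 to 12720 CPM (counts scaled to a common library size with TMM factors). RNA was measured in bulk, so fewer cells of a type and less RNA per cell cannot be told apart.

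Across the 9 genes the 4 libraries did not share 1 direction. A gene is called GFP-high below where GFP exceeded tdTomato by 2-fold or more in each pair, and tdTomato-high where tdTomato did. Rnf213 and Oas1c were the GFP-high genes of the 9, and Ifit3 was the tdTomato-high one. Stat2, Irf7 and Irf9, the transcription factors around ISGF3, were higher in GFP in the female pair and lower in GFP in the male pair. Isg15 was at or near 0 everywhere.

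**Figure D2:**
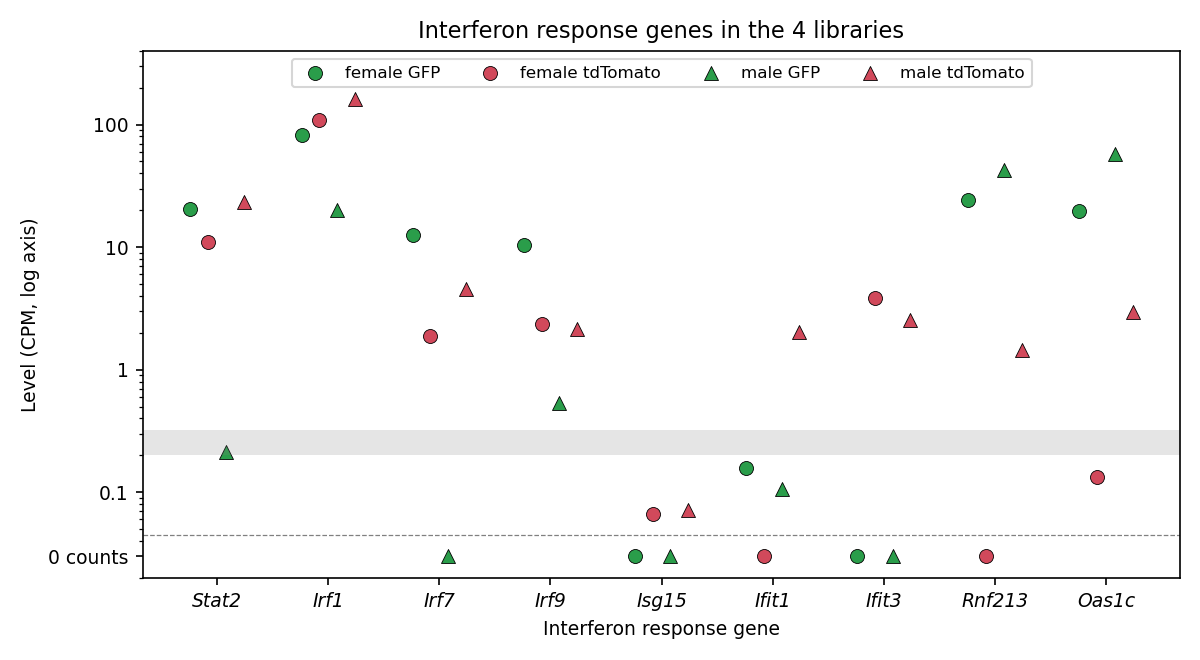
Level of each gene in each of the 4 libraries (y axis, CPM on a log axis, with libraries at 0 counts drawn under the dashed line); circles are female, triangles male, green GFP and red tdTomato. The grey band marks the worth of 3 counts, 0.201 to 0.319 CPM. Both GFP points of Rnf213 and Oas1c lie above both tdTomato points, both GFP points of Ifit3 lie at 0, and the male GFP points of Stat2 and Irf7 lie at or under the band.

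Stat2 (ENSMUSG00000040033) is the signal transducer that is specific to type I and type III interferon. It measured 20.6 CPM (GFP) and 10.9 CPM (tdTomato) in the female sample, then 0.213 CPM (GFP) and 23.2 CPM (tdTomato) in the male pool. Male GFP stood apart from the other 3 libraries, with an estimated 1.71 counts. In the female pair GFP exceeded tdTomato 1.89-fold (95% exact binomial interval of counting error 1.55 to 2.31), and in the male pair tdTomato exceeded GFP 109-fold (29.97 to 905). The mean log2 ratio, GFP over tdTomato, came to -2.54 ± 4.87 (SD, n = 2 pairs). Without male GFP the ratio was 0.37. Values without a library, here and below, are the GFP mean less the tdTomato mean of log2 CPM, not paired by suspension.

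Irf9 (ENSMUSG00000002325), the DNA-binding subunit of ISGF3, measured 10.45 CPM (GFP) and 2.34 CPM (tdTomato) in the female sample, then 0.532 CPM (GFP) and 2.16 CPM (tdTomato) in the male pool. Female GFP was the high library and male GFP the low one, while the tdTomato libraries lay close together. Female GFP exceeded female tdTomato 4.47-fold (3.06 to 6.68), and male tdTomato exceeded male GFP 4.05-fold (1.56 to 13.4). Its mean log2 ratio of 0.17 ± 2.71 (SD, n = 2 pairs) became -0.029 when libraries were scaled by their totals and -1.80 without female GFP. Irf9 shares 123 exon bases with Rnf31 on the same strand, and the counting of shared reads is not given. Rnf31 had 1.05, 135.59, 0 and 146.2 estimated counts in the same library order, beside 131.86, 35, 5.36 and 29.91 for Irf9, and its part in the Irf9 counts was not tested.

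Irf7 (ENSMUSG00000025498) amplifies the response by driving interferon alpha genes. It measured 12.5 CPM (GFP) and 1.87 CPM (tdTomato) in the female sample, then 0 CPM (GFP) and 4.53 CPM (tdTomato) in the male pool. The GFP libraries were the highest and the lowest of the 4. Female GFP exceeded female tdTomato 6.68-fold (4.45 to 10.4), and male tdTomato was at least 14.2-fold higher than male GFP, whose 0 counts were set at 3. The mean log2 ratio, -1.13 ± 5.33 (SD, n = 2 pairs), was 2.04 without male GFP. Irf7 shares 45 exon bases with Phrf1 on the opposite strand, which had 490.04, 448.52, 1.36 and 42.85 estimated counts in the same library order.

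Irf1 (ENSMUSG00000018899), a factor that both interferon gamma and inflammatory signals induce, was detected in every library. It measured 82.6 CPM (GFP) and 108 CPM (tdTomato) in the female sample, then 19.9 CPM (GFP) and 162 CPM (tdTomato) in the male pool. Both GFP libraries lay below both tdTomato libraries. The female gap was 1.31-fold (1.21 to 1.42) and the male gap 8.15-fold (7.02 to 9.515), with a mean log2 ratio, GFP over tdTomato, at -1.70 ± 1.86 (SD, n = 2 pairs). Gm17334 on the opposite strand shares 135 exon bases with Irf1 and had 497.31, 303.76, 138 and 355.05 estimated counts in the same library order. Per kilobase of exon, Irf1 led the 9 genes in 3 libraries, at 20.8, 27.25 and 40.8 CPM per kb in female GFP, female tdTomato and male tdTomato, whereas Oas1c led in male GFP at 24.04 CPM per kb against 5.01 for Irf1. After Irf1 in female GFP came Oas1c at 8.17 CPM per kb, Stat2 at 3.475, Irf7 at 3.31, Irf9 at 1.94 and Rnf213 at 1.43. In male tdTomato the order after Irf1 was Stat2 at 3.92 CPM per kb, Ifit3 at 1.44, Oas1c at 1.23, Irf7 at 1.20 and Ifit1 at 0.758, and in male GFP, after Oas1c and Irf1, Rnf213 followed at 2.53 with the rest under 0.1.

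Of the antiviral effectors, Isg15, Ifit1 and Ifit3 are textbook products of ISGF3, and each carries the ISRE matches printed above. Isg15 (ENSMUSG00000035692), a ubiquitin-like protein that is attached to other proteins, had 0, 1, 0 and 1.12 estimated counts in female GFP and tdTomato, then male GFP and tdTomato. No fold is given, since all libraries were under the limit of 3 counts. Ifit1 (ENSMUSG00000034459), which binds viral RNA lacking a host cap, had 2, 0, 0.95 and 28.5 estimated counts in the same order. Only male tdTomato held more than a few counts of Ifit1, 2.01 CPM, 18.9-fold above male GFP (3.13 to 774). Neither Isg15 nor Ifit1 had enough counts for the test across genes, and the other 7 of the 9 did.

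Ifit3 (ENSMUSG00000074896), a partner of Ifit1, had 0 counts in both GFP libraries and measured 3.81 CPM in female tdTomato and 2.52 CPM in male tdTomato. The fractions did not overlap. Against 3 counts in GFP, tdTomato was at least 16.05-fold higher for the female library and at least 7.88-fold higher for the male one. The mean log2 ratio with the prior count was -4.37 ± 0.40 (SD, n = 2 pairs), which is no bound. Of all 15055 genes tested, 6.64% likewise had 0 counts in both GFP libraries.

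Oas1c and Rnf213 were the reverse. Oas1c (ENSMUSG00000001166) belongs to the 2′-5′ oligoadenylate synthetase family, whose active members sense double-stranded RNA and switch on RNase L. It measured 19.6 CPM (GFP) and 0.134 CPM (tdTomato) in the female sample, then 57.8 CPM (GFP) and 2.95 CPM (tdTomato) in the male pool. Both GFP libraries lay above both tdTomato libraries. The ratio was 147-fold for the female sample, on 2 counts in tdTomato (40.2 to 1219), and 19.6-fold for the male pool (14.3 to 27.6). On the log2 scale the mean was 5.155 ± 1.32 (SD, n = 2 pairs), and 3.45 without female tdTomato. Similar Oas1 copies lie beside Oas1c and reads could be shared between them, so its count is uncertain; the antisense Gm43069, without a count here, also shares 227 exon bases with it. The matched copies were low, Oas1a having 0, 0, 0 and 10.05 estimated counts, Oas1b 4, 18.3, 0 and 0, and Oas1g 2, 0, 0 and 6.95 in the library order above.

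Rnf213 (ENSMUSG00000070327), a giant ubiquitin ligase and ATPase whose human counterpart is the susceptibility gene of moyamoya disease, a narrowing of brain arteries, measured 24.1 CPM (GFP) and 0 CPM (tdTomato) in the female sample, then 42.8 CPM (GFP) and 1.44 CPM (tdTomato) in the male pool. The GFP libraries again lay above both tdTomato libraries. GFP was at least 120.0-fold higher in the female sample, and the male ratio was 29.75-fold (19.0 to 49.2). On the log2 scale the mean was 6.01 ± 1.78 (SD, n = 2 pairs), and 4.34 without female tdTomato. The antisense transcript A930037H05Rik shares 1476 exon bases with Rnf213, and without strand their reads are not separable. It had 173.5, 27.4, 69.66 and 72.75 estimated counts in the same library order.

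Levels 2-fold apart are common between these libraries, and the counts over the 9 genes are to be read against that. In the female pair, 22.0% of genes tested were at least 2-fold higher in GFP and 37.8% at least 2-fold lower. In the male pair these shares were 21.5% and 50.0%. Both pairs together gave 5.17% higher in GFP, with Rnf213 and Oas1c 2 of the 7 tested, and 22.9% lower in GFP, with Ifit3 1 of the 7. A 2-fold or larger excess of GFP in the female pair, with one of tdTomato in the male pair, was found for 11.5% of genes and for Irf7 and Irf9 of the 7. The opposite order held for 7.75% of genes and for 0 of the 7. As the 9 genes were selected with these ratios known, the counts are no evidence on the pathway. The share of all genes whose GFP libraries both lay on 1 side of both tdTomato libraries is not given here. Such an order in single genes is therefore description only.

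**Figure D3:**
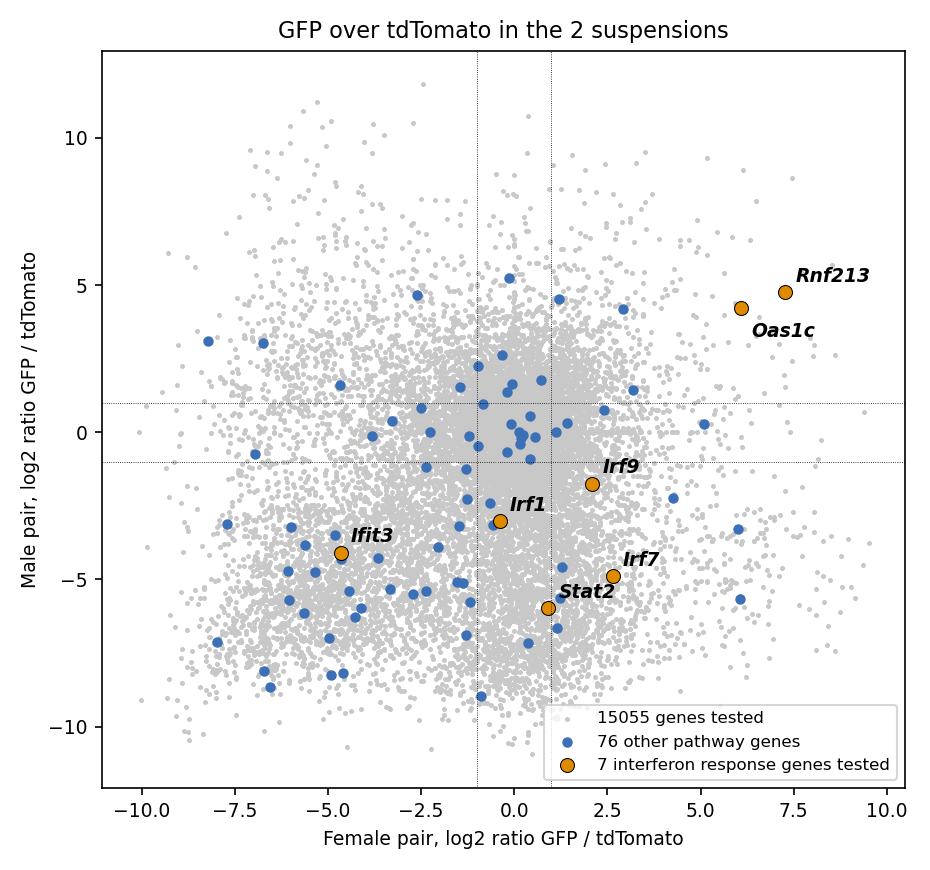
log2 ratio of GFP over tdTomato in the female pair (x axis) and the male pair (y axis) for 15055 genes (grey), 76 other pathway genes (blue) and 7 of the 9 genes (orange), with dotted lines at 2-fold. Rnf213 and Oas1c lie at the upper right, Ifit3 at the lower left, and Stat2, Irf7 and Irf9 at the lower right.

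Tested over the 2 pairs with edgeR (quasi-likelihood, p-values adjusted by Benjamini-Hochberg), the fractions had no gene past the threshold, 0 of 15055 (0%), with 0.577 as the smallest adjusted p and 1298 genes (8.62%) at an unadjusted p under 0.05. DESeq2 called 1157 genes, 49 higher in GFP (0.325%) and 1108 lower (7.36%), and limma-voom 0, and without female GFP edgeR called 2316. Among the 7 genes tested, Ifit3 was the only one with an unadjusted p under 0.05. DESeq2 called Rnf213 and Oas1c, gave Ifit3 no adjusted p, and limma-voom called 0 of the 7. The 7 were chosen with these results known, so their p-values and calls are description and no support. Ifit3, with no count in GFP, passed the count filter through the tdTomato libraries alone. The only replicates were 2 suspensions that also differ in sex, and the common dispersion was 1.47.

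The rest of the pathway was read from lists ordered by role, in which 117 of 140 listed genes were matched and 76 were tested. Of these 76, 3 were GFP-high and 31 tdTomato-high, beside the 5.17% and 22.9% of all genes. Of the 76, 8 had 0 counts in both GFP libraries, beside 6.64% of all genes, and passed the count filter through tdTomato alone. The reverse, 0 counts in both tdTomato libraries, held for 0 of the 76 and 17 of all 15055 genes. The median log2 ratio was -1.30 (female) and -2.24 (male). edgeR called 0 of the 76, with 9 at an unadjusted p under 0.05, DESeq2 called 11, all lower in GFP, and limma-voom called 0. Over all genes the edgeR share was 8.62%, and nearly all DESeq2 calls were likewise lower in GFP (1108 of 1157). The female pair alone had 13 genes at least 2-fold higher and 42 lower in GFP, and the male pair alone 14 and 41.

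Among ligands, Ifne was the only one of 10 listed that was matched, with 2 counts in male GFP and 0 elsewhere. Of 8 receptors and kinases, 3 were tdTomato-high and 0 GFP-high. Values for GFP and for tdTomato are given below with the female library first. Ifnar1, a chain of the type I receptor, measured 5.70 and 5.11 CPM in female and male GFP against 16.25 and 48.05 CPM in tdTomato. Tyk2, the kinase bound to that chain, measured 0.317 and 0.319 CPM (GFP) against 11.8 and 9.28 CPM. Jak1, which both receptors use, was high in female GFP (248.5 CPM) and low in male GFP (0.958 CPM) like Stat2, with 113 and 110.6 CPM for tdTomato. Jak2 and Ifngr1, of the interferon gamma receptor complex, lay between 45.2 and 60.2 CPM and between 50.6 and 95.3 CPM in all libraries. Ifngr2, the other chain of that receptor, was less even, at 6.26 and 73.8 CPM (GFP) against 35.98 and 41.8 CPM (tdTomato).

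Of 7 other STAT and IRF genes, 0 were GFP-high. Irf3, which carries the signal of nucleic acid sensors, measured 68.03 and 113 CPM (GFP) and 41.3 and 32.6 CPM (tdTomato). Of 11 sensors and adaptors, 5 were tdTomato-high and 0 GFP-high. Tmem173 (STING), the adaptor of the cytosolic DNA sensor, had no count in GFP, against 16.3 and 43.3 CPM in tdTomato. Myd88, an adaptor of Toll-like receptors, measured 1.90 and 0.213 CPM (GFP) against 13.4 and 16.6 CPM.

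Antiviral effectors were the longest list, with 35 tested, of which 17 were tdTomato-high and 3 GFP-high. The GFP-high ones were Phf11d, Ube2l6 and Daxx. Phf11d measured 35.2 and 298.9 CPM (GFP) and 4.48 and 16.4 CPM (tdTomato), and Ube2l6, the conjugating enzyme for Isg15, 9.82 and 16.4 CPM against 0.936 and 5.90 CPM. Daxx, a histone chaperone, measured 13.6 and 16.8 CPM against 5.82 and 0.576 CPM. Among the tdTomato-high ones, Ifi27l2a had no count in GFP, against 14.7 and 63.7 CPM in tdTomato. Trim30a measured 0.0792 and 0 CPM (GFP) against 59.8 and 21.7 CPM, and Parp14, an ADP-ribosyltransferase, 0.317 and 0.426 CPM against 23.3 and 40.6 CPM. Ifi27 lay between 138.6 and 269 CPM in all libraries.

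Genes that interferon gamma induces had the lowest medians, -4.58 (female) and -5.67 (male), over 7 tested of 16 matched. Of the 7, 4 were tdTomato-high and 0 GFP-high, beside 22.9% and 5.17% of all genes. Those 4, Gbp6, Gbp3, Cxcl10 and Gbp4, had 0 to 2.05 estimated counts in GFP and passed the count filter through tdTomato alone. Their low ratios thus came with the filter, and the medians are description only. The chemokine Cxcl10 and the GTPase Gbp3 had no count in GFP, against 3.61 and 45.7 CPM and 4.61 and 47.8 CPM in tdTomato. Irgm1, another GTPase, had the directions of Irf7, with 81.7 and 0.319 CPM for GFP and 1.07 and 24.2 CPM for tdTomato. Gbp7 went the other way, at 0 and 30.3 CPM (GFP) against 47.01 and 3.38 CPM. Of 9 negative regulators, 2 were tdTomato-high, Cish and Adar, and 0 GFP-high. Socs3, which blocks Jak kinases, measured 95.4 and 55.8 CPM (GFP) against 35.6 and 44.4 CPM. Of the OAS family, 7 of 11 listed genes were matched and 0 had enough counts to be tested, Oas2 reaching 67 counts in male tdTomato and 0 elsewhere.

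**Figure D4:**
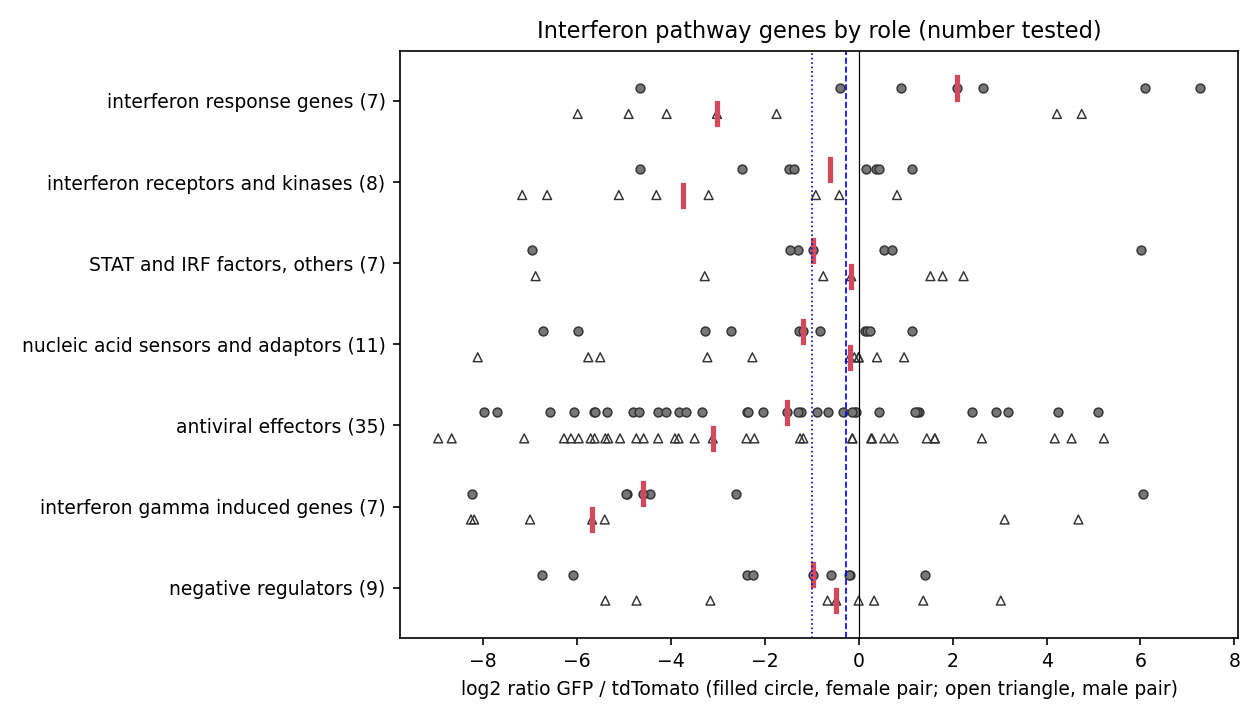
log2 ratio of GFP over tdTomato (x axis) for each tested gene by role, female pair as filled circles and male pair as open triangles, with red bars at list medians and blue lines at the medians of all genes (dashed -0.27, female; dotted -0.998, male). The genes induced by interferon gamma have the lowest medians, -4.58 and -5.67, followed by antiviral effectors in the female pair (-1.52) and by receptors and kinases in the male pair (-3.75). Among those induced by interferon gamma, the 4 tdTomato-high ones passed the count filter through tdTomato alone.

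The ISRE search was extended to the other pathway genes as a description. Promoters were held for 61 of the 76 tested. Of 14 genes with an ISRE match, 7 were tdTomato-high and 0 GFP-high, and of 47 without a match 14 were tdTomato-high and 3 GFP-high. Over all genes tested these shares were 22.9% and 5.17%. Opposite directions in the 2 pairs, at 2-fold or more, held for 5 of the 14, 4 of the 47 and 2893 of all 15055 genes. Among all matched genes of each list with a promoter, ISRE letters were found before 10 of 11 genes induced by interferon gamma, 10 of 37 antiviral effectors and 3 of 5 OAS genes. Among the interferon response genes tested, those with an ISRE match were Oas1c (GFP-high), Ifit3 (tdTomato-high) and Stat2 (neither).

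The sexes were compared within a colour, with 1 library on each side, no test, and sex and suspension that cannot be told apart. In GFP, 4 of the 7 genes were at least 2-fold higher in the female library and 1 in the male library, beside 40.4% and 27.9% of all genes. Stat2 was 96.7-fold (26.5 to 803), Irf7 at least 39.2-fold, Irf9 19.6-fold (8.21 to 61.5) and Irf1 4.15-fold (3.55 to 4.87) higher in female GFP. Oas1c was 2.94-fold (2.53 to 3.43) and Rnf213 1.78-fold (1.53 to 2.07) higher in male GFP. In tdTomato, 0 of the 7 were at least 2-fold higher in the female library and 4 in the male library, beside 21.6% and 20.6% of all genes. Those 4 were Oas1c, 22.05-fold (5.73 to 188), Rnf213, at least 7.17-fold, Irf7, 2.42-fold (1.53 to 3.92), and Stat2, 2.13-fold (1.76 to 2.59). Irf9 and Ifit3 had counting intervals that included equal levels, 0.647 to 1.83 and 0.977 to 2.38 for female over male.

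The profiles nearest to the 7 tested genes were read across the libraries. Likeness was the Euclidean distance between log2 CPM profiles centred over 4 libraries, among named genes of at least 10 CPM. Cipc, a regulator of the circadian clock, was nearest to Oas1c (distance 0.40) and to Rnf213 (0.88), at 40.15 CPM (GFP) and 0.268 CPM (tdTomato) in the female sample, then 92.2 CPM (GFP) and 5.90 CPM (tdTomato) in the male pool. Oas1c and Rnf213 were each other's next nearest gene (0.997). Trove2 and Adsl were nearest to Stat2 (0.21 and 0.27), Emc4 and Chpf to Irf1 (0.22 and 0.28), Isy1 and Poglut1 to Irf7 (0.19 and 0.27), Mto1 and Adm to Irf9 (0.28 and 0.29), and Kpna3 and Mrpl10 to Ifit3 (0.45 and 0.51). With 4 points these distances describe the libraries only.

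Immune and other cell types also express interferon genes, and their markers moved between the same libraries. Of 10 matched macrophage and monocyte markers, 3, 7, 0 and 7 were above 3 counts in female GFP and tdTomato, then male GFP and tdTomato, with summed levels of 31.2, 28.5, 0.639 and 86.75 CPM. Cd68, C1qb, Mrc1 and Lyz2 were at 0 in both GFP libraries. Most of the female GFP sum came from Cd14 (24.07 CPM, against 8.16 in female tdTomato) and Csf1r (6.415 against 4.75 CPM). Lymphocyte, dendritic and neutrophil markers, 8 matched, summed to 1.11, 1.54, 2.77 and 67.4 CPM, and endothelial markers, 10 matched, to 64.2, 434, 58.2 and 279.5 CPM. Of the endothelial markers, Kdr and Egfl7 were at 0 in both GFP libraries, while Flt1 was higher in GFP (48.3 and 45.6 CPM, female then male) than in tdTomato (36.1 and 27.05 CPM). Flt1 and Pecam1 (15.2 and 11.8 CPM) made up most of the GFP sums. Fibroblast markers, 7 matched, summed to 2992, 2752, 294.6 and 3175 CPM, and Schwann cell and melanocyte markers, 8 matched, to 468.9, 81.4, 242.6 and 70.35 CPM. The fibroblast sums were carried mostly by Dcn (2134 CPM in GFP of the female sample, 153 CPM in GFP of the male pool), whereas Pi16 was higher in male GFP (88.4 CPM) than in female GFP (10.85 CPM) and Pdgfra was at 0 in female GFP. Among Schwann and melanocyte markers, Cdh19 was at 130.0 CPM in female GFP and at 0 in the other libraries. The part of these cells in the levels of the 9 genes was not tested.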

How the data were processed

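Polyadenylated RNA was copied with SMART-Seq v4 and read in pairs, per the labels' protocols; this kit does not mark strand. The submitters' processing notes name fastp, HISAT2, StringTie and GRCm39. Counting program and annotation release: not given in the sources used here. Estimated counts per gene, as deposited by the authors, were unscaled, and 59.4% to 69.1% of values were whole (tolerance 1e-06). Symbols were matched by Ensembl ID for 76.4% of the 32948 genes, exon lengths came from GENCODE M21 (GRCm38), and promoters from RefSeq (GRCm38.p6).

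Counts were rounded and scaled by library total and TMM factor (0.923, 1.08, 0.931 and 1.08). Ratios are log2 with a prior count of 2. Folds carry exact 95% binomial intervals without a prior count, and 0 counts were bounded by 3 counts per library. With PCR and no molecular identifiers both cover counting error only. edgeR 4.0.16 (R 4.3.3) was fitted to the 15055 genes that filterByExpr kept at a minimum of 10 counts, with suspension as a block, since both colours came from 1 suspension, and 1 residual degree of freedom. Calls were made at an adjusted p under 0.05. DESeq2 1.42.0, limma 3.58.1, scaling, prior, filter, block and each library were varied. The 9 genes and the lists were chosen with earlier results of these data known. Named genes were the 9, for each of the 7 tested the 2 nearest profiles among 7356 genes of at least 10 CPM, and from each list the 3 tested genes of highest mean CPM and up to 5 by the smaller fold among those at least 2-fold apart one way in each pair, in part printed. Ifngr2, Ube2l6, Daxx, the OAS copies and the single markers were named after their values were seen. The values of some listed genes are not reported here.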

Additional observations from a re-analysis of the deposited data

Results flagged for a closer look

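Stat2, Irf7 and Irf9 had opposite directions in the 2 suspensions, higher in GFP in the female pair and lower in the male pair. Over all genes tested, 11.5% had these directions at 2-fold or more in each pair. Irf7 and Irf9 passed that threshold, and Stat2, at 1.89-fold in the female pair, did not. The log2 ratio of GFP over tdTomato was larger in the female pair by 6.89 for Stat2, 7.54 for Irf7 and 3.83 for Irf9. The difference was not tested, since each sex and colour had 1 library. With PCR and no molecular identifiers, the counting intervals of these genes do not measure variation between libraries. Of all 15055 genes tested, 3522 had 0 counts in male GFP.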

How the results depend on the processing

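Over all genes, edgeR called 0 with the suspension as a replicate block, 0 without the block, 0 with DESeq2 size factors and 0 with no filter on low counts. limma-voom called 0 and DESeq2 1157. Leaving out 1 library, with no block, gave 0 to 2316 calls, the highest without female GFP. In these fits the lone GFP or tdTomato library is assumed to vary like the others. With a prior count of 0.5, tdTomato-high genes numbered 2 of the 9 in place of 1, Isg15 being added on 1.12 counts or fewer. Counting 1 pair alone, chosen after seeing the data, gave 5 of the 9 as GFP-high (female; 2 over both), Ifit1 among them on 2 counts, and 6 as tdTomato-high (male; 1 over both). Other pathway genes that were GFP-high numbered 13 (female alone) and 14 (male alone), in place of 3.

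Of 36 values for the 9 mean log2 ratios under other scalings and priors, 1 turned its sign, Irf9 at -0.029 with library totals. Of 36 with 1 library left out, in which colour means were compared without pairing, 4 did. The ranges were -5.44 to 0.37 for Stat2 and -4.29 to 2.04 for Irf7, both positive without male GFP, -1.80 to 2.14 for Irf9, negative without female GFP, and -2.91 to 0.88 for Ifit1, positive without male tdTomato. Rnf213 (4.34 to 7.68), Oas1c (3.45 to 6.86), Ifit3 (-4.66 to -4.09), Irf1 (-2.73 to -0.68) and Isg15 (-0.54 to -0.51) kept their sign. This was fixed in advance, because in each both GFP libraries lay on 1 side of both tdTomato libraries. Scaling by library totals moved the median over all genes from -0.76 to -0.96 (log2, mean of pairs), and DESeq2 size factors moved it to -0.60. Depth limits Isg15 and Ifit1, which had under 3 counts in 4 and 3 libraries.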
